A study of Mus musculus with 24 samples.

Results

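The collagen genes were the 44 coding features whose deposited symbol is COL, a number, A and a number, out of 20879 coding features and 75794 features in all. Letter case aside, all 44 names are mouse RefSeq symbols. Of the 44 rows, 38 carry the word collagen in their deposited description, while the description of the other 6 was not analysed here. The members lie on 15 chromosomes, and Col4a3bp, which begins like a collagen symbol but codes for a ceramide transporter, is outside the set.

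Liver RNA was measured in 4 groups of 6 C57BL/6 Ghr fl/fl mice. All are labelled male, were aged 10 to 12 weeks at injection and were studied 7 days after AAV8, an adeno-associated virus that reaches the liver, was given by tail vein. The group aHepGHRkd_STAT5bCA received Cre recombinase at 1.5 and a constitutively active mouse STAT5b at 0.75, in units of 1e+11 genome copies. The group aHepGHRkd_rIGF1 received Cre at 1.5 and rat IGF1 at 2.0 in that unit, the group aHepGHRkd received Cre at 1.5 alone, and the Control group received an empty Null vector and kept its growth hormone receptor. Null vector brought the total to 3.5 in every mouse, so all groups, Control included, share the floxed allele and the virus load. The promoter of thyroxine-binding globulin, a hepatocyte promoter, drives each vector, so Cre, IGF1 and STAT5bCA were all directed to that cell type. The labels name hepatocytes as the cell type, but RNA was extracted from whole frozen liver. Each collagen value below is the authors' 1 value per group in TPM, a level of transcript scaled for length and library size, with no value for a single mouse, so no SD can be given and the depth is unknown.

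Collagens are the triple-helical proteins of the extracellular matrix. A chain is hydroxylated, glycosylated and folded into a trimer in the endoplasmic reticulum, and fibrillar chains are then trimmed outside the cell and cross-linked into fibres. In liver the fibrillar types I and III are made chiefly by stellate cells and portal fibroblasts, type IV forms the basement membrane network of vessels and ducts, and type XVIII, the source of endostatin, is made by hepatocytes as well. Growth hormone acts on hepatocytes through its receptor, JAK2 and STAT5b, and much of its effect on other tissues runs through IGF1 secreted from the liver. The comparisons ask what loss of the receptor in hepatocytes does to a gene, and what is added when IGF1 or active STAT5b is supplied to receptor-deficient hepatocytes.

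A gene is called higher or lower where the p in the authors' deposited table is under 0.05. This p was read as a Benjamini-Hochberg adjusted edgeR p over coding and noncoding features together. The 3 comparisons all use the aHepGHRkd group, on top in the first and as the baseline in the others, so they are not independent of each other. Ghr, the targeted gene, stood at 55.1 TPM in aHepGHRkd, against 180 TPM in Control, a ratio of 0.302 with an adjusted p of 9.99e-61 in the authors' deposited table. Socs2, a STAT5 target that dampens growth hormone signalling, stood at 38.3 TPM in aHepGHRkd_STAT5bCA, against 1.48 TPM in aHepGHRkd. Its ratio was 26.6 with an adjusted p of 1.64e-89 in the authors' deposited table. Igf1 stood at 114 TPM in aHepGHRkd_rIGF1, against 26.2 TPM in aHepGHRkd, a ratio of 3.89 with an adjusted p of 0.946 in the authors' deposited table, so the row of the supplied gene was itself uncalled with rIGF1. The supplied gene is rat, and how many of its reads were counted in the mouse row is not known here. By the authors' deposited table Stat5b, Igfals and Cish rose with STAT5bCA over aHepGHRkd, and Igf1, Igfals, Socs2 and Cish fell in aHepGHRkd over Control. Of the 10 hepatocyte markers, Ttr and Cyp3a11 rose and Tat fell with receptor loss, Cyp3a11 fell with STAT5bCA over aHepGHRkd, and 0 were called with rIGF1. Markers of cells other than hepatocytes were present in every group: the 17 measured stellate cell markers other than collagens summed to between 98.85 and 153.4 TPM over the groups, the 10 sinusoidal endothelial markers to between 79.77 and 93.55 TPM and the 9 Kupffer cell markers to between 67.64 and 87.2 TPM. In such bulk tissue, fewer cells of a type and less RNA per cell cannot be told apart.

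Col4a1, Col6a6 and Col23a1 rose with active STAT5b, Col25a1 fell with loss of the receptor, and no collagen gene was called with rat IGF1. Col4a1, a basement membrane chain, was the only one of the 4 called genes above 1 TPM, and Col6a6, Col23a1 and Col25a1 stayed below 0.4 TPM in all groups. In aHepGHRkd_STAT5bCA over aHepGHRkd, 3 of 44 members (6.82%) were called higher and 0 lower by the authors' deposited table, beside 1.77% of all coding features called higher and 0.407% called lower. In aHepGHRkd over Control, 0 members were called higher and 1 lower, beside 1.62% and 1.91% of coding features. In aHepGHRkd_rIGF1 over aHepGHRkd, 0 members were called, beside 0.00958% of coding features, which is 2 genes. With the deposited p turned back into the largest unadjusted p it allows, at least 5 of 44 members had an unadjusted p under 0.05 with STAT5bCA (11.4%), 7 with rIGF1 (15.9%) and 5 with receptor loss (11.4%), beside at least 6.33%, 1.60% and 9.74% of coding features. The number of tests was taken as that of the features above 0 TPM in either group. It was 48238 for STAT5bCA, 48257 for rIGF1 and 47897 for receptor loss. If no fewer features were tested, the counts are lower limits, since a deposited p of exactly 1 hides the unadjusted value.

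**Figure D1:**
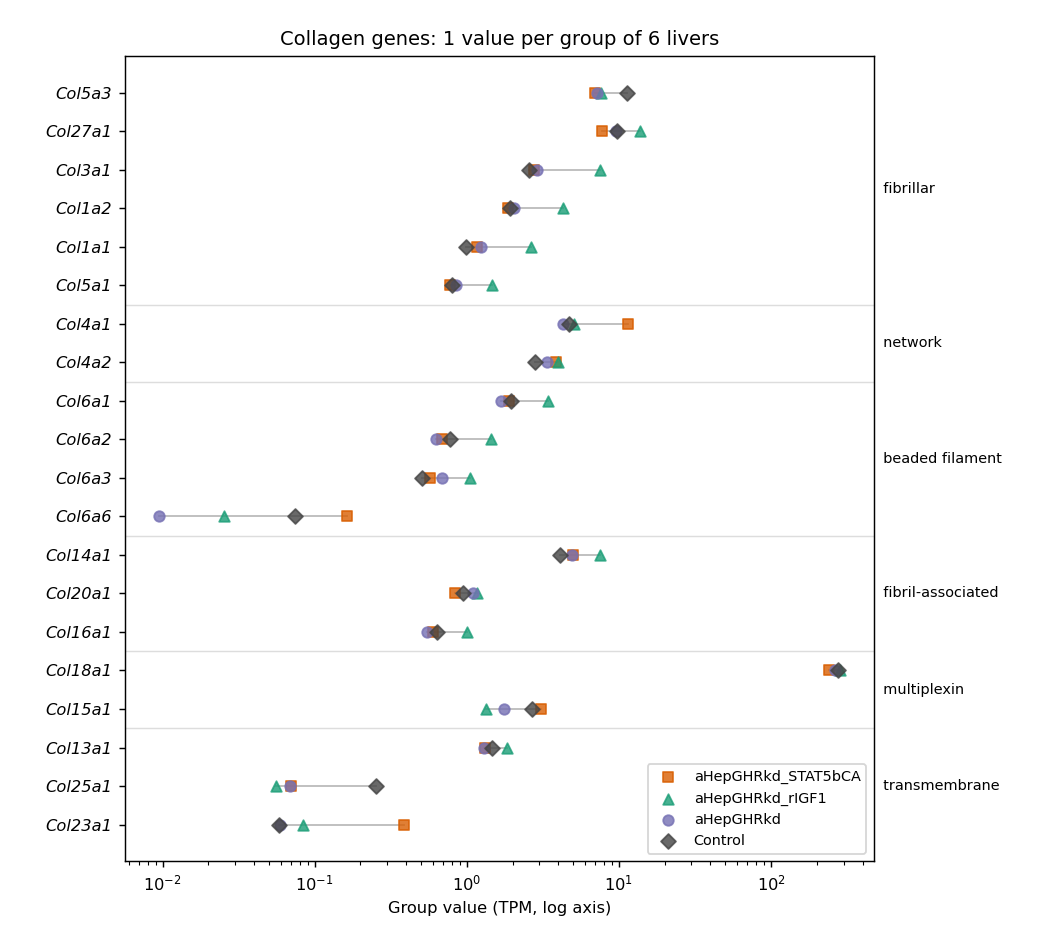
Group values of the 20 collagen genes that reached 1 TPM in any group or were called in any comparison, in TPM on a log axis, with 1 point per group and the members sorted by structural class and by their Control value. Col18a1 stands alone at the right, the aHepGHRkd_rIGF1 value is the highest of the 4 for Col3a1, Col1a2 and Col1a1, and the aHepGHRkd_STAT5bCA value is the highest for Col4a1, Col6a6 and Col23a1.

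Most collagen genes were near or below 1 TPM in these livers. At 1 TPM or more stood 12 of 44 members in aHepGHRkd_STAT5bCA (27.3%), 17 in aHepGHRkd_rIGF1 (38.6%), 13 in aHepGHRkd (29.5%) and 11 in Control (25%). For all coding features the shares were 51.5%, 52.4%, 51.3% and 51.2% in the same groups. The collagen share is the lower one in each group, a difference that was not tested. In all, 17 members reached 1 TPM in any group and 11 in every group, while 8 were listed at 0 in at least 1 group and none in all 4. A 0 in such a table need not mean absence. Mia3, a collagen export receptor used by many cell types, is also listed at 0 in every group. Its row, however, is placed on 1_random, apart from the main chromosome sequences on which the collagen members lie. It may therefore not speak for their zeros. The 24 members not described one by one had highest values between 0.00308 and 0.537 TPM, and none was called. Among them are the cartilage collagens Col2a1, Col9a1 and Col11a1, the epithelial collagens Col7a1 and Col17a1, and the type IV chains of the glomerulus Col4a3 and Col4a5. Their ratios in the authors' deposited table, for the 17 with a value in both groups, ran between 0.359 and 3.47 in aHepGHRkd_STAT5bCA over aHepGHRkd, between 0.625 and 5.7 in aHepGHRkd_rIGF1 over aHepGHRkd, and between 0.217 and 1.96 in aHepGHRkd over Control.

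One gene carried most collagen transcripts. Col18a1 (chromosome 10, 76514924 to 76629275 on mm9, minus strand, 43 exons), a multiplexin with heparan sulfate chains in basement membranes, stood at 239 TPM in aHepGHRkd_STAT5bCA, 282 TPM in aHepGHRkd_rIGF1, 262 TPM in aHepGHRkd and 274 TPM in Control. Its values lie close together, with aHepGHRkd_STAT5bCA lowest. The authors' deposited table gives ratios of 0.942, 1.01 and 0.938 for STAT5bCA over aHepGHRkd, rIGF1 over aHepGHRkd and aHepGHRkd over Control, each with an adjusted p of 1. It held 81.9%, 80.7%, 85% and 84.5% of the summed collagen TPM of aHepGHRkd_STAT5bCA, aHepGHRkd_rIGF1, aHepGHRkd and Control. The sum over all 44 members was 291.9, 349.8, 307.7 and 324.8 TPM in those groups. Without Col18a1 the sum was 52.97 TPM in aHepGHRkd_STAT5bCA, 67.57 TPM in aHepGHRkd_rIGF1, 46.09 TPM in aHepGHRkd and 50.37 TPM in Control. The ratio of the sums of aHepGHRkd_rIGF1 over aHepGHRkd was thus 1.14 with Col18a1 and 1.47 without it. That of aHepGHRkd_STAT5bCA over aHepGHRkd was 0.948 with Col18a1 and 1.15 without it, so its direction turned on this gene. These sums are of TPM. The deposited ratios differ from the TPM ratios by a median log2 of -0.10 for rIGF1 and 0.05 for STAT5bCA, and the ratios of sums were not corrected for this offset. No sum was tested, since the table has no value per mouse.

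Col15a1, the other multiplexin, a proteoglycan that links basement membranes to fibrils, showed another pattern at a lower level. It stood at 3.08 TPM in aHepGHRkd_STAT5bCA, 1.33 TPM in aHepGHRkd_rIGF1, 1.77 TPM in aHepGHRkd and 2.67 TPM in Control. The values of aHepGHRkd_STAT5bCA and Control are the higher pair. The authors' deposited table gives ratios of 1.78 (adjusted p = 0.083), 0.699 (adjusted p = 1) and 0.666 (adjusted p = 0.527) for STAT5bCA, rIGF1 and receptor loss, and none passed the threshold.

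The basement membrane collagens turned on Col4a1. Type IV collagen of most vessels is a trimer of 2 chains from Col4a1 with 1 from Col4a2, and these genes lie head to head on chromosome 8. On mm9 Col4a1 runs from 11198423 to 11312826 on the minus strand with 53 exons, and Col4a2 from 11312805 to 11449287 on the plus strand with 48 exons, so their annotated first bases overlap by 22. Col4a1 stood at 11.5 TPM in aHepGHRkd_STAT5bCA, 5.05 TPM in aHepGHRkd_rIGF1, 4.29 TPM in aHepGHRkd and 4.67 TPM in Control. The STAT5bCA value stands apart from the other 3, which lie close together. In the authors' deposited table Col4a1 rose with STAT5bCA over aHepGHRkd by a ratio of 2.76 with an adjusted p of 1.44e-13, and was uncalled with rIGF1 over aHepGHRkd (1.09, adjusted p = 1) and with aHepGHRkd over Control (0.917, adjusted p = 1). Col4a2 stood at 3.87 TPM in aHepGHRkd_STAT5bCA, 3.96 TPM in aHepGHRkd_rIGF1, 3.36 TPM in aHepGHRkd and 2.81 TPM in Control. Its values are within a narrow range, and its ratios in the authors' deposited table were 1.18, 1.10 and 1.19 in the same comparisons, each with an adjusted p of 1. Per unit of Col4a2 TPM, Col4a1 stood at 2.96 in aHepGHRkd_STAT5bCA, 1.28 in aHepGHRkd_rIGF1, 1.27 in aHepGHRkd and 1.66 in Control. The difference between the chains in their response was not tested, as it would need values per mouse.

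The region around both starts is shown because the called gene and its uncalled partner begin within it. The windows hold 250 bases before and 50 after the RefSeq start on GRCm38.p6, each 5′ to 3′ on the gene's own strand, and they share 78 bases, read on opposite strands. Capitals mark CCAAT, a box common in promoters, or its reverse complement ATTGG.
Col4a1, chr8:11312777-11313076, minus strand: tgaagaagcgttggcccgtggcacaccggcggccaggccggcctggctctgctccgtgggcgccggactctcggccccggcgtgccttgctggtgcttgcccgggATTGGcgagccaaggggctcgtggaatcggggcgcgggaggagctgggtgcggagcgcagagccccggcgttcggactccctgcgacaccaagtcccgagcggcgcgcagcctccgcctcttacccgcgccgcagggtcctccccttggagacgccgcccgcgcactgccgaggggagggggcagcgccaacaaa
Col4a2, chr8:11312555-11312854, plus strand: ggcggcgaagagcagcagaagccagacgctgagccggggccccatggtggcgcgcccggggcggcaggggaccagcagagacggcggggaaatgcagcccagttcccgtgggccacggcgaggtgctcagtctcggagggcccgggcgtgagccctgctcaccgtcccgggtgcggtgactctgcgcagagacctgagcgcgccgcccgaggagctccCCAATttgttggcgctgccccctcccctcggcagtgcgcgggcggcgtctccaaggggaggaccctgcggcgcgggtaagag
Each window held 1 CCAAT, and neither held TTCNNNGAA, the motif that STAT5 is known to bind. Searched on both strands, TTCNNNGAA was found in 2 of the 38 windows of 35 collagen genes (5.26%), those of Col28a1 and Col6a5, and in 8.3% of all 32851 windows of the table. CCAAT was found in 13 of the 38 (34.2%) and in 37.4% of all windows. A match describes letters in this window and no more.

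Noncoding features on the opposite strand were looked at for Col4a1 and Col4a2, since the sources used here do not say whether counting used strand, and reads of overlapping genes might then be shared. Over Col4a1 lie NC_AS_C8_45869, at 1.51 TPM in aHepGHRkd_STAT5bCA, 0.848 TPM in aHepGHRkd and 0.911 TPM in Control and listed at 0 in aHepGHRkd_rIGF1, and Gm15418, at 0.390, 0.0468 and 0.202 TPM in the same groups and also listed at 0 in aHepGHRkd_rIGF1. Over Col4a2 lies Gm15419, at 0.662 TPM in aHepGHRkd_STAT5bCA, 0.632 TPM in aHepGHRkd_rIGF1, 0.146 TPM in aHepGHRkd and 0.0797 TPM in Control. Its STAT5bCA ratio in the authors' deposited table was 4.43 with an adjusted p of 0.0674. None of the 3 was called. In all, 19 noncoding features overlapped 17 members, 18 of them on the opposite strand, and 0 were called in any comparison by the authors' deposited table, beside 0.839%, 0.00728% and 1.13% of all noncoding features in the STAT5bCA, rIGF1 and receptor loss comparisons. Their part in the Col4a1 value was not tested.

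Col6a6 had the widest relative span of any described member. It codes for a type VI chain that is thought able to replace the alpha 3 chain in beaded microfibrils. Col6a6 (chromosome 9, 105591747 to 105730415 on mm9, minus strand, 38 exons) stood at 0.162 TPM in aHepGHRkd_STAT5bCA, 0.0254 TPM in aHepGHRkd_rIGF1, 0.00945 TPM in aHepGHRkd and 0.0745 TPM in Control. The aHepGHRkd value is the lowest and the STAT5bCA value the highest. In the authors' deposited table it rose in STAT5bCA over aHepGHRkd by a ratio of 14.8 with an adjusted p of 1.66e-11, and its ratio in aHepGHRkd over Control was 0.150 with an adjusted p of 0.0595, short of the threshold. With rIGF1 over aHepGHRkd the ratio was 2.16 with an adjusted p of 1 in the authors' deposited table. The TPM of aHepGHRkd_STAT5bCA was 2.18 times that of Control, a comparison with no p here. The paralogs Col6a5 and Col6a4 lie next to it on the same strand, and how reads shared by paralogs were counted is not stated in the sources used here. Col6a5 stood at 0.00695 TPM in aHepGHRkd_STAT5bCA, 0.0449 TPM in aHepGHRkd_rIGF1, 0.00632 TPM in aHepGHRkd and 0.0342 TPM in Control. It was uncalled, with ratios in the authors' deposited table of 1.16, 5.70 and 0.217 for STAT5bCA, rIGF1 and receptor loss. Col6a6 was high with STAT5bCA where its neighbour Col6a5 was not.

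Col23a1, a transmembrane collagen whose ectodomain can be shed, was likewise highest with STAT5bCA. Col23a1 (chromosome 11, 51103422 to 51397427 on mm9, plus strand, 29 exons) stood at 0.385 TPM in aHepGHRkd_STAT5bCA, 0.0835 TPM in aHepGHRkd_rIGF1, 0.0595 TPM in aHepGHRkd and 0.0584 TPM in Control. The first value stands apart from the other 3. The authors' deposited table gives a ratio of 6.42 with an adjusted p of 2.14e-11 for STAT5bCA over aHepGHRkd, so it rose, and ratios of 1.30 and 1.00, each with an adjusted p of 1, for rIGF1 over aHepGHRkd and aHepGHRkd over Control. Its TPM in aHepGHRkd_STAT5bCA was 6.6 times that in Control, again with no p here.

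Col25a1, a transmembrane collagen first known from amyloid plaques of human brain, was the member that fell with receptor loss. Col25a1 (chromosome 3, 129883763 to 130302801 on mm9, plus strand, 39 exons) stood at 0.0702 TPM in aHepGHRkd_STAT5bCA, 0.0555 TPM in aHepGHRkd_rIGF1, 0.0688 TPM in aHepGHRkd and 0.253 TPM in Control. Control is high and the 3 groups that received Cre are low. In the authors' deposited table the ratio of aHepGHRkd over Control was 0.281 with an adjusted p of 0.0403, and those of STAT5bCA and rIGF1 over aHepGHRkd were 0.992 and 0.753, each with an adjusted p of 1. The call is near the threshold, and the 3 groups also differ from Control in Cre itself, which cannot be told apart from loss of the receptor. Col13a1, another transmembrane collagen and the only one of its class above 1 TPM, stood at 1.33 TPM in aHepGHRkd_STAT5bCA, 1.83 TPM in aHepGHRkd_rIGF1, 1.29 TPM in aHepGHRkd and 1.46 TPM in Control and was uncalled throughout.

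The windows at the RefSeq starts of the other 3 called genes are given on GRCm38.p6 with the same bounds and the same use of capitals. They show which letters stand at the starts of genes that were called at low levels.
Col6a6, chr9:105828036-105828335, minus strand: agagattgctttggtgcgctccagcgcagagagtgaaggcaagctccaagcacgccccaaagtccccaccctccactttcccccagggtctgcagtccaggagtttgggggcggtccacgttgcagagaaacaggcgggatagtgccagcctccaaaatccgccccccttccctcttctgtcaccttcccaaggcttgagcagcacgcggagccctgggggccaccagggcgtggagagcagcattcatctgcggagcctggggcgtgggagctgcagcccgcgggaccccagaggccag
Col23a1, chr11:51289670-51289969, plus strand: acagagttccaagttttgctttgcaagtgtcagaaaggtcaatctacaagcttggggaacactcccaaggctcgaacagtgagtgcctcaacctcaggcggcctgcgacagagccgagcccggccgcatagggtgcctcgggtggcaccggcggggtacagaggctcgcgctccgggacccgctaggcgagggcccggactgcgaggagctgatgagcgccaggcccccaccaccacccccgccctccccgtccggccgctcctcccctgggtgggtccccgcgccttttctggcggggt
Col25a1, chr3:130180595-130180894, plus strand: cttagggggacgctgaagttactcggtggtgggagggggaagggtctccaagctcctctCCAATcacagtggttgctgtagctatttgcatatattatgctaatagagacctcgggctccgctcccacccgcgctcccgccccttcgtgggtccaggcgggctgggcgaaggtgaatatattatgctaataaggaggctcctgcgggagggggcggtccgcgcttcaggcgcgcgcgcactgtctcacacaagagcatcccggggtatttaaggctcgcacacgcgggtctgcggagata
None of these held TTCNNNGAA, and that of Col25a1 held 1 CCAAT. The GC content was 65% for Col6a6, 67.7% for Col23a1 and 60% for Col25a1, against 74% for Col4a1 and 73.7% for Col4a2. The median was 59.8% over the collagen windows and 52.7% over all windows.

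**Figure D2:**
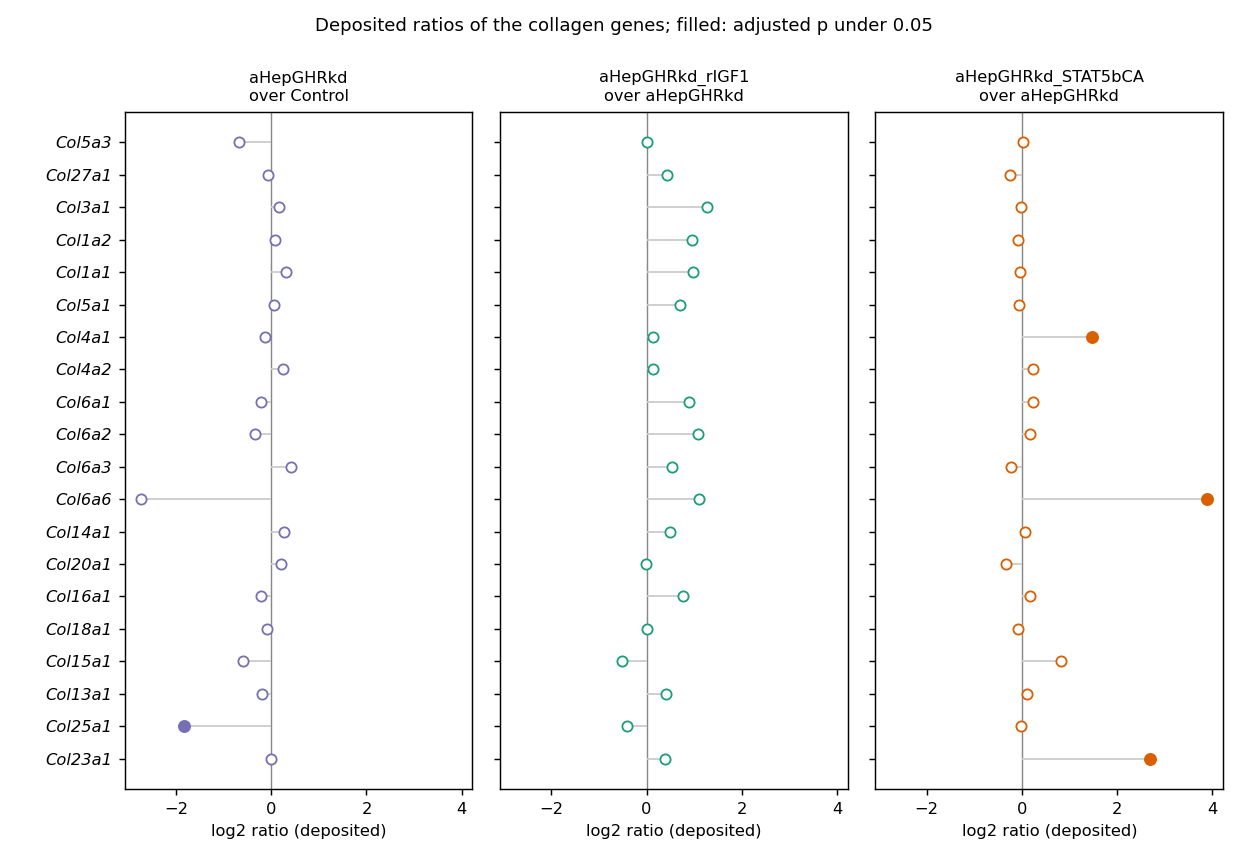
Deposited log2 ratios of the same 20 collagen genes in the 3 comparisons, 1 point per gene, filled where the authors' adjusted p was under 0.05. In STAT5bCA over aHepGHRkd the filled points are Col4a1, Col6a6 and Col23a1, in aHepGHRkd over Control only Col25a1 is filled, and in rIGF1 over aHepGHRkd no point is filled although most lie right of 0.

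The fibrillar collagens form the fibres of the interstitial matrix, and 5 of the 6 that are described had their highest value with rat IGF1, none of them called. Col3a1, the chain of type III collagen that forms the reticular fibres of the liver, stood at 2.76 TPM in aHepGHRkd_STAT5bCA, 7.52 TPM in aHepGHRkd_rIGF1, 2.87 TPM in aHepGHRkd and 2.57 TPM in Control. Col1a1, the major chain of type I collagen, stood at 1.16 TPM, 2.63 TPM, 1.24 TPM and 0.991 TPM in those groups, and its partner chain Col1a2 at 1.88 TPM, 4.28 TPM, 2.05 TPM and 1.93 TPM. In each of the 3 genes the rIGF1 value is the high one and the other groups lie together. For rIGF1 over aHepGHRkd the authors' deposited table gives ratios of 2.42 for Col3a1 (adjusted p = 0.523), 1.97 for Col1a1 (adjusted p = 1) and 1.94 for Col1a2 (adjusted p = 0.517). With receptor loss alone their ratios over Control were 1.12, 1.25 and 1.06, and with STAT5bCA over aHepGHRkd 0.991, 0.971 and 0.951, each with an adjusted p of 1 in the authors' deposited table. Col1a1 per unit of Col1a2 TPM was 0.618 in aHepGHRkd_STAT5bCA, 0.615 in aHepGHRkd_rIGF1, 0.604 in aHepGHRkd and 0.513 in Control. The proportion of the chains thus varied little among the 3 groups that received Cre.

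Col5a1, a type V chain that sits inside type I fibrils, stood at 0.775 TPM in aHepGHRkd_STAT5bCA, 1.47 TPM in aHepGHRkd_rIGF1, 0.847 TPM in aHepGHRkd and 0.801 TPM in Control. Its rIGF1 ratio over aHepGHRkd was 1.62 in the authors' deposited table with an adjusted p of 0.391. Col27a1, a fibrillar collagen of cartilage, stood at 7.75 TPM in aHepGHRkd_STAT5bCA, 13.7 TPM in aHepGHRkd_rIGF1, 9.51 TPM in aHepGHRkd and 9.70 TPM in Control, again highest with rIGF1 and uncalled. Its rIGF1 ratio in the authors' deposited table was 1.35 with an adjusted p of 1. An antisense lncRNA that overlaps its 3′ end, NC_AS_C4_3310, was far more abundant, at 84.7 TPM in aHepGHRkd_STAT5bCA, 37.9 TPM in aHepGHRkd_rIGF1, 77.3 TPM in aHepGHRkd and 73.3 TPM in Control. It was lowest where Col27a1 was highest, with an rIGF1 ratio of 0.454 and an adjusted p of 0.104 in the authors' deposited table, so it too was uncalled. Col5a3, the third type V chain, was the exception among the fibrillar members described singly. It stood at 7.01 TPM in aHepGHRkd_STAT5bCA, 7.63 TPM in aHepGHRkd_rIGF1, 7.18 TPM in aHepGHRkd and 11.3 TPM in Control. The 3 groups that received Cre are alike and lower than Control. Its ratio for receptor loss was 0.622 with an adjusted p of 0.0514 in the authors' deposited table, just outside the threshold, and those for rIGF1 and STAT5bCA over aHepGHRkd were 1.00 and 1.02.

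The 3 main chains of type VI collagen, which form beaded filaments and anchor cells to the interstitial matrix, were likewise highest with rIGF1 and uncalled there. Col6a1 stood at 1.91 TPM in aHepGHRkd_STAT5bCA, 3.40 TPM in aHepGHRkd_rIGF1, 1.67 TPM in aHepGHRkd and 1.94 TPM in Control. Col6a2 stood at 0.683 TPM, 1.44 TPM, 0.631 TPM and 0.778 TPM, and Col6a3 at 0.571 TPM, 1.05 TPM, 0.687 TPM and 0.506 TPM, in the same groups. The rIGF1 value is the highest for all 3 chains. In the authors' deposited table the rIGF1 ratios over aHepGHRkd were 1.87 for Col6a1 (adjusted p = 0.485), 2.12 for Col6a2 (adjusted p = 0.391) and 1.44 for Col6a3 (adjusted p = 1). Col6a1 per unit of Col6a2 TPM was 2.79 in aHepGHRkd_STAT5bCA, 2.37 in aHepGHRkd_rIGF1, 2.65 in aHepGHRkd and 2.50 in Control.

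The fibril-associated collagens bind to the surface of fibrils. Col14a1, which binds decorin on type I fibrils, stood at 4.96 TPM in aHepGHRkd_STAT5bCA, 7.51 TPM in aHepGHRkd_rIGF1, 4.94 TPM in aHepGHRkd and 4.07 TPM in Control. Col16a1 stood at 0.597 TPM, 1.01 TPM, 0.547 TPM and 0.633 TPM in those groups, and Col20a1 at 0.834 TPM, 1.17 TPM, 1.10 TPM and 0.945 TPM. Both Col14a1 and Col16a1 are highest with rIGF1, and Col20a1 varies little. Their rIGF1 ratios in the authors' deposited table were 1.41, 1.71 and 0.991, each with an adjusted p of 1.

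Over the members with a mean of 1 TPM or more over the 4 groups, 11 of 13 had a deposited rIGF1 ratio above 1, beside 45.7% of the 10800 coding features with such a mean. The median log2 ratio of those 13 was 0.42, beside -0.02 for the coding features. At 1.5-fold or more, whatever the p, stood 4 of 13 members (30.8%), beside 0.630% of those coding features. For STAT5bCA over aHepGHRkd the median was 0.02 beside -0.01, with 7 of 13 above 1, and for aHepGHRkd over Control it was -0.06 beside 0.03, with 6 of 13 above 1. For STAT5bCA, 2 of 13 stood at 1.5-fold or more (Col4a1 and Col15a1), beside 2.85% of the coding features, and for receptor loss 2 of 13 stood at 1.5-fold lower or beyond (Col5a3 and Col15a1), beside 3.12%, while 0 of 13 did so for rIGF1, beside 0.898%. With 1 TPM asked for in either group of a comparison, 1 of 13 members was called with STAT5bCA, 0 of 17 with rIGF1 and 0 of 13 with receptor loss, beside 3.41%, 0.0182% and 6.28% of coding features. Under that filter 7 of 17 stood at 1.5-fold or more with rIGF1, beside 1.00%, and 2 of 13 at 1.5-fold lower or beyond with receptor loss, beside 3.33%. These are counts in the authors' deposited table with no test of the set, and 4 further members reached 1 TPM in rIGF1 alone of the rIGF1 and aHepGHRkd groups, so that a filter on either group would have taken them in through their high value.

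**Figure D3:**
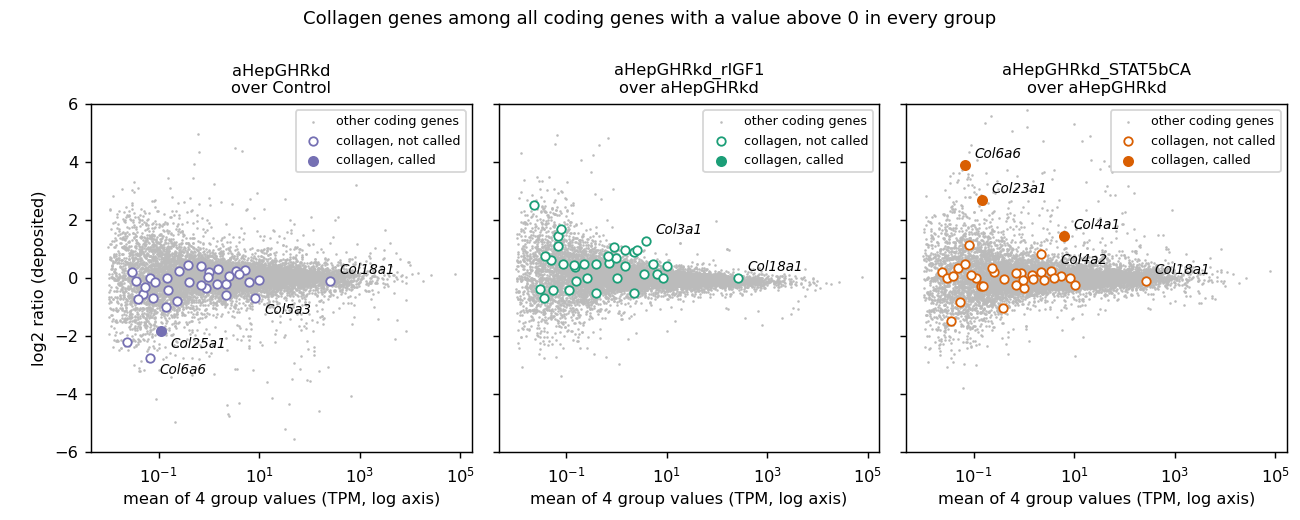
Deposited log2 ratio against the mean of the 4 group values (TPM, log axis) for coding genes with a value above 0 in every group and a mean of at least 0.01 TPM, with the 35 collagen genes among them drawn as circles, filled where called. The axis ends at 6 in each direction, which leaves out 13 genes, none a collagen; in the rIGF1 panel the collagen genes around 1 to 10 TPM mostly lie above 0 with none filled, and in the STAT5bCA panel Col4a1 stands apart while Col4a2 lies near 0.

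Stellate cell markers and matrix genes also had ratios above 1 with rIGF1, and none of them was called. Of 13 stellate cell markers other than collagens with a mean of 1 TPM or more, 12 had an rIGF1 ratio over aHepGHRkd above 1 in the authors' deposited table, with a median log2 ratio of 0.43 and none called. The 17 measured markers summed to 98.85 TPM in aHepGHRkd_STAT5bCA, 153.4 TPM in aHepGHRkd_rIGF1, 112.2 TPM in aHepGHRkd and 106.4 TPM in Control, and none was listed at 0. Like the collagen sums, they were not corrected for the offset between TPM ratios and deposited ratios. Lrat, the retinol esterifying enzyme that defines quiescent stellate cells, stood at 2.13 TPM in aHepGHRkd_STAT5bCA, 4.10 TPM in aHepGHRkd_rIGF1, 2.83 TPM in aHepGHRkd and 2.58 TPM in Control. Reln stood at 2.49, 4.55, 2.72 and 2.34 TPM, and Des at 1.72, 2.87, 1.82 and 1.55 TPM, in those groups. Acta2, the actin of activated stellate cells and smooth muscle, stood at 0.486 TPM in aHepGHRkd_STAT5bCA, 1.02 TPM in aHepGHRkd_rIGF1, 0.804 TPM in aHepGHRkd and 1.06 TPM in Control. For rIGF1 over aHepGHRkd the median log2 ratio was 0.05 for the 10 sinusoidal endothelial markers, 0.02 for the 9 Kupffer cell markers, 0.04 for the 10 hepatocyte markers and 0.32 for the 5 cholangiocyte markers with a mean of 1 TPM or more. A ratio above 1 was held by 9 of these 10 endothelial, 5 of 9 Kupffer, 6 of 10 hepatocyte and 5 of 5 cholangiocyte markers. A ratio above 1 was thus not particular to the stellate and matrix lists. The 12 markers of portal fibroblasts, mesothelium and smooth muscle, of which 2 reached 1 TPM in any group, summed to 7.89 TPM in aHepGHRkd_STAT5bCA, 8.776 TPM in aHepGHRkd_rIGF1, 8.149 TPM in aHepGHRkd and 7.988 TPM in Control. Only 1 of them, Entpd2, had a mean of 1 TPM or more. It gave 3.53 TPM of the rIGF1 sum, with an rIGF1 ratio over aHepGHRkd of 0.872. Others at lower levels had rIGF1 ratios above 1, such as Msln (1.78) and Eln (1.30), or below it, such as Thy1 (0.836) and Actg2 (0.726). The sum therefore says little about the rest of the list. The stellate and cholangiocyte markers thus had higher medians than the endothelial, Kupffer and hepatocyte ones. The stellate values move with those of the fibrillar and type VI collagens across the groups, and their part in the rIGF1 values of the collagens was not tested. For STAT5bCA over aHepGHRkd, where Col4a1 rose, the median log2 ratio was -0.07 for the endothelial and -0.04 for the stellate markers in the authors' deposited table, and none of either list was called.

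The interstitial matrix partners, such as decorin, biglycan and fibronectin, held 20 genes, 0 of which were called in any comparison. The shares called over all coding features were 2.18% with STAT5bCA, 0.00958% with rIGF1 and 3.53% with receptor loss. With rIGF1 over aHepGHRkd, 8 of the 9 with a mean of 1 TPM or more had a ratio above 1 in the authors' deposited table, with a median log2 ratio of 0.48. Dcn stood at 44.4 TPM in aHepGHRkd_STAT5bCA, 71.9 TPM in aHepGHRkd_rIGF1, 46.6 TPM in aHepGHRkd and 49.9 TPM in Control. Fn1, most of which comes from hepatocytes in liver, stood at 337, 362, 353 and 285 TPM in those groups and so varied less than Dcn between rIGF1 and aHepGHRkd. Its rIGF1 ratio over aHepGHRkd in the authors' deposited table was 0.958, the only one of the 9 below 1, against 1.43 for Dcn. Dcn is also among the stellate markers.

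**Figure D4:**
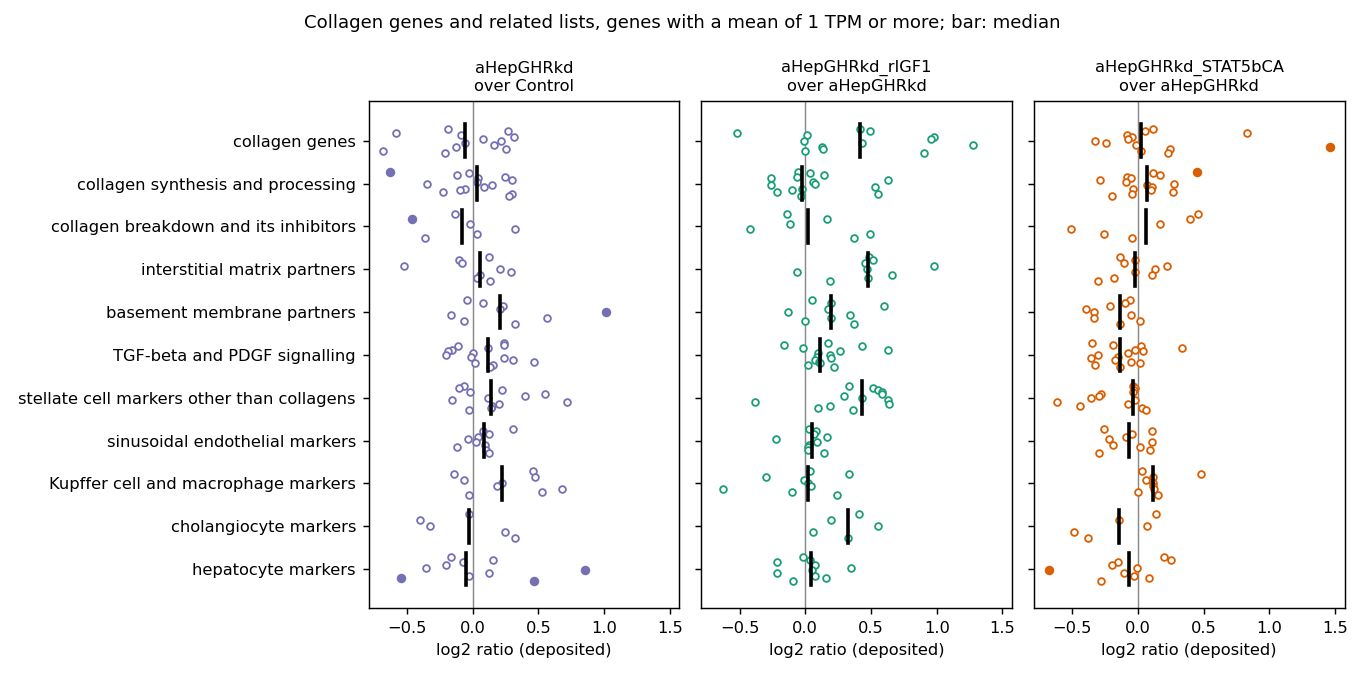
Deposited log2 ratios of the collagen genes and of related lists, for genes with a mean of 1 TPM or more over the 4 groups, 1 point per gene, filled where called, with a bar at each list's median. In the rIGF1 panel the medians of the collagen genes (0.42), the interstitial matrix partners (0.48) and the stellate markers (0.43) lie to the right of that of the endothelial markers (0.05). That of the cholangiocyte markers (0.32) lies between them.

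Of the 16 basement membrane partners, which assemble with type IV and XVIII collagen, 1 rose and 1 fell with receptor loss and 0 were called with rIGF1 or STAT5bCA. Beside these counts stand 3.53%, 0.00958% and 2.18% of coding features called with receptor loss, rIGF1 and STAT5bCA. Lama3, a chain of epithelial laminin, fell to 0.301 TPM in aHepGHRkd, against 1.42 TPM in Control, a ratio of 0.211 with an adjusted p of 8.65e-16 in the authors' deposited table. Lamb3, its partner chain, stood at 4.54 TPM in aHepGHRkd and 2.20 TPM in Control and rose by a ratio of 2.02 with an adjusted p of 0.00306 in the authors' deposited table. Lama3 was 0.280 TPM in aHepGHRkd_STAT5bCA and 0.340 TPM in aHepGHRkd_rIGF1, close to its aHepGHRkd value. The nidogens, perlecan (Hspg2) and Sparc, which bind type IV collagen, were uncalled. Sparc, the most abundant of them, stood at 16.8 TPM in aHepGHRkd_STAT5bCA, 26.6 TPM in aHepGHRkd_rIGF1, 19.1 TPM in aHepGHRkd and 15.2 TPM in Control.

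Among the 34 genes of collagen synthesis and processing, 2 rose with STAT5bCA, 1 fell with receptor loss and 0 were called with rIGF1. Over all coding features 2.18%, 3.53% and 0.00958% were called in those comparisons. Colgalt2, a galactosyltransferase that modifies hydroxylysines of collagen chains, stood at 1.99 TPM in aHepGHRkd_STAT5bCA, 0.121 TPM in aHepGHRkd_rIGF1, 0.0580 TPM in aHepGHRkd and 0.144 TPM in Control. The STAT5bCA value stands far above the rest, with a ratio over aHepGHRkd of 33.4 and an adjusted p of 3.44e-60 in the authors' deposited table. Its TPM there was 13.8 times that of Control, with no p here. The related Colgalt1 was more abundant, at 29.9, 31.2, 28.4 and 28.5 TPM in the same groups, and was uncalled. Bmp1, the proteinase that removes the C-terminal propeptide of fibrillar procollagens, stood at 43.8 TPM in aHepGHRkd_STAT5bCA, 34.3 TPM in aHepGHRkd_rIGF1, 33.2 TPM in aHepGHRkd and 50.9 TPM in Control. In the authors' deposited table it fell with receptor loss, at a ratio of 0.646 and an adjusted p of 8.96e-06, and rose with STAT5bCA over aHepGHRkd, at a ratio of 1.36 and an adjusted p of 0.0108. With rIGF1 over aHepGHRkd its ratio was 0.963 with an adjusted p of 1 in the authors' deposited table. Serpinh1, the collagen chaperone HSP47, stood at 3.50 TPM in aHepGHRkd_STAT5bCA, 5.96 TPM in aHepGHRkd_rIGF1, 3.74 TPM in aHepGHRkd and 3.06 TPM in Control. It was uncalled, as were the prolyl hydroxylase subunits P4ha1, P4ha2 and P4hb and the lysyl oxidases.

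The 11 collagen receptors held 0 calls in any comparison. Itgb1, the common beta chain of the collagen-binding integrins, stood at 49.6 TPM in aHepGHRkd_STAT5bCA, 55.6 TPM in aHepGHRkd_rIGF1, 50.7 TPM in aHepGHRkd and 55.6 TPM in Control. Among 19 genes of collagen breakdown and its inhibitors, 2 fell with receptor loss and 0 were called in the other comparisons. Mmp15, a membrane-bound metalloproteinase, stood at 12.2 TPM in aHepGHRkd and 16.5 TPM in Control, a ratio of 0.726 with an adjusted p of 0.0345 in the authors' deposited table. Reck, a membrane-anchored inhibitor of metalloproteinases, stood at 0.663 TPM in aHepGHRkd and 1.25 TPM in Control, a ratio of 0.529 with an adjusted p of 0.00506 in the authors' deposited table. The 22 genes of TGF-beta and PDGF signalling, which drive collagen expression in stellate cells, held 0 calls in any comparison. Of all coding features, 2.18% were called with STAT5bCA, 0.00958% with rIGF1 and 3.53% with receptor loss. At such shares 0 calls in lists as short as these says little about their genes. Tgfb1 itself stood at 5.04 TPM in aHepGHRkd_STAT5bCA, 6.64 TPM in aHepGHRkd_rIGF1, 5.89 TPM in aHepGHRkd and 4.73 TPM in Control.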

How the data were processed

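Liver RNA from 24 mice in 4 groups of 6 was polyA-selected (RNA integrity above 7), per the labels' protocols. STAR, featureCounts, edgeR and mm9 are named in the submitters' processing notes, and the sources used here give neither their versions nor whether counting used strand. The authors' deposited table holds 1 TPM value per group, adding up to between 999981 and 999989. Its ratio between 2 groups (linear, first named over second) was made with edgeR, per the file headers. Each p-value in the authors' deposited table comes from a column that states no adjustment. These were read as Benjamini-Hochberg adjusted, since 72384, 75054 and 69174 of 75794 values are exactly 1 for STAT5bCA, rIGF1 and receptor loss.

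With no value per mouse, no SD, test or interval was computed here, and the tests planned on single libraries were not run. Whether mice count as separate samples rests on the labels. Sex is labelled male, while the treatment text names both sexes. Fold changes are the deposited ratios. The members and gene lists were chosen with earlier results of these data known. Members that reached 1 TPM in any group or were called are named with all values; other lists by their called genes and up to 4 of the most abundant. Lrat, Reln, Des, Acta2, Serpinh1, Colgalt1, Mia3, Tgfb1 and the genes named only as uncalled fall outside this rule and were chosen after their values were seen. The mean of 1 TPM used for counts over the members was chosen after the data were seen. Promoter windows are RefSeq's on GRCm38.p6. Python 3.11.15, pandas 2.3.3, numpy 2.4.6 and matplotlib 3.10.9 were used, and functions were checked on simulated data.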

Additional observations from a re-analysis of the deposited data

How the results depend on the processing

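No paired analysis was possible because the deposited table has no value per library. Leaving out single replicates and a replicate block were not run for the same reason, so no result could be checked against the spread between mice, and depth is unknown. For receptor loss, the single collagen call became 0 at p under 0.01 and 0 among members with 1 TPM or more in either group, and 2 members passed a fold of at least 1.5 with 1 TPM and no p. For rIGF1, 7 of 17 members passed that fold without p, beside 1.00% of coding features, 3 of them (Col6a2, Col5a1 and Col16a1) admitted only by their rIGF1 value; with a mean of 1 TPM over the groups it was 4 of 13. For STAT5bCA, 1 of the 3 calls remained at 1 TPM or more, that of Col4a1. Without Col18a1, a choice made after seeing the data, the ratio of summed TPM was 1.15 for STAT5bCA, against 0.948 with it, which turns the direction, and 1.47 for rIGF1, against 1.14. Without Col1a1, Col1a2 and Col3a1 the ratio of sums was 0.949, 1.11 and 0.944 for STAT5bCA, rIGF1 and receptor loss. In the comparison where it was called, no gene changed direction when TPM ratios replaced the deposited ones. The size did change for the called genes at low levels when a pseudocount of 1 TPM was added to both groups. With STAT5bCA the log2 ratio went from 3.89 to 0.20 for Col6a6 and from 2.68 to 0.39 for Col23a1. For Col4a1 it went from 1.46 to 1.24, and for Col25a1 with receptor loss from -1.83 to -0.23. Of 180 alternatives for single genes 172 kept the direction and 8 did not. Those 8 were of Col23a1 (receptor loss), Col20a1 (rIGF1), Col25a1 and Col5a3 (STAT5bCA), each uncalled in that comparison. The deposited log2 ratios of these genes round to 0.02 or less in size, and the changed alternatives reached 0.08. The deposited ratios differ from the TPM ratios by a median log2 of 0.05, -0.10 and -0.02 in those comparisons.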
